A study of Mus musculus with 16 samples.

Results

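The genes described here are 49 genes of the urea cycle and of amino acid catabolism, out of the 55450 genes in the count table. They were chosen by symbol for their pathway membership, with earlier results of these data known. They were read in bulk mRNA sequencing of primary hepatocytes from wild-type mice, which the study's methods give as male C57BL/6J animals of 8 to 12 weeks. There were 4 groups of 4 libraries: untreated cells, cells treated with 10 mM sodium itaconate, cells treated with a chemically defined lipid mixture (chemically defined lipid mixture 1, diluted 1:10, a mixture of cholesterol with saturated and unsaturated fatty acids, among them palmitic, oleic, linoleic and arachidonic acid), and cells given the lipid mixture and 10 mM itaconate together. All 4 groups were kept overnight in complete DMEM with 5% fetal bovine serum and insulin-transferrin-selenium, so serum and insulin were present in the untreated cells too. Each group has libraries with the replicate letters A, B, C and D, and the letter was kept in the model because libraries of 1 letter deviated from their group means together. Nothing in the labels ties a letter to an animal or a culture. The p-values measure the spread left between these libraries once treatment and letter are fitted, and that spread may be technical in part. Sodium was added with itaconate, and the effects of both cannot be told apart.

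The liver disposes of amino nitrogen and of the carbon skeletons of amino acids. Aminotransferases and glutamate dehydrogenase collect nitrogen as glutamate, ammonia and aspartate, and the urea cycle joins it into urea, starting in mitochondria with carbamoyl phosphate synthetase and ending in the cytosol with arginase. The skeletons are broken down by a separate route for each amino acid, many of them starting with an enzyme found almost only in liver. In the liver lobule, urea synthesis, glutaminase, histidase and serine dehydratase lie mainly in periportal hepatocytes, while glutamine synthetase and ornithine aminotransferase are marks of the pericentral cells.

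With the lipid mixture, 27 of the 49 genes changed, 23 lower and 4 higher, by the quasi-likelihood test of edgeR (adjusted p under 0.05, Benjamini-Hochberg over all 11675 genes tested). Of all genes tested, 47.5% were called in this comparison, 23.8% higher and 23.7% lower. The median log2 fold change of the 49 was −0.23, against 0.00 over all genes tested, and 38 of the 49 values lay below 0. Scaled by library totals alone in place of TMM, under which the median of the 49 was −0.15 and that of all genes 0.08, 28 members were called, 8 higher and 20 lower, the added rises being *Glul*, *Got1*, *Got2* and *Slc25a15*. Itaconate alone moved no member past the threshold, and in lipid-treated cells it moved 3, *Tdo2* upwards and *Glul* and *Slc25a15* downwards. The deepest falls with lipid were in lysine, histidine, serine, kynurenine and betaine breakdown (*Aass*, *Hal*, *Sds*, *Kynu*, *Bhmt*), and the 4 genes that rose were *Amt* and *Gldc* of the glycine cleavage system, *Sdsl* and *Nags*.

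Levels are given as CPM (counts scaled to the library total) after TMM normalisation, in the order of the letters A, B, C and D unless a sentence says otherwise, and changes as log2 fold changes with their standard error (SE). All 49 genes passed the filter of a mean of 1 CPM. The libraries held 22346049 to 35512004 counts. Albumin was at 24254 to 44691 CPM, whereas the 8 stellate cell and fibroblast markers were each below 1 CPM and *Acta2* was at 0 in 15 libraries. The macrophage markers summed to 223 ± 45.1 CPM in untreated cells, 198 ± 34.8 with itaconate, 283 ± 42.2 with lipid and 266 ± 51.1 with both (SD, n = 4), most of it *Cd68*, while *Clec4f* of Kupffer cells was at 1.02 to 3.52 CPM. Of the 7 tested, *Cd68* was higher and 3 were lower with lipid, and *Cd68* was higher and 6 were lower with lipid in itaconate-treated cells. With itaconate alone *Cd68* fell by 0.24 and *Lyz2* rose by 0.50 on the log2 scale. The endothelial markers summed to 13.9 to 17.6 CPM by group. The cholangiocyte markers went from 842 ± 245 CPM in untreated cells to 467 ± 123 with lipid, nearly all of it *Spp1* and *Sox9*, while *Krt19* was at most at 0.544 CPM, *Epcam* at 0.581 and *Krt7* at 0 in 14 libraries. The part of these markers in the changes below was not tested. Of the 8 hepatocyte markers, 1 rose and 4 fell with lipid, albumin among them (log2 fold change −0.18, adjusted p = 0.0142). In bulk RNA, fewer cells of a type and less RNA per cell cannot be told apart.

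A pair of features of the libraries runs through the values below. The letter A libraries of untreated and itaconate-treated cells were high for most members (median log2 deviation of the 49 genes from their mean over all libraries 0.27 and 0.32), and the lipid + itaconate library C was low (−0.44). That library also had the largest share of counts from the mitochondrial genome, 6.01%, against a mean of 3.78 ± 0.243% in untreated cells. Together the 49 genes made up 0.592 ± 0.0469% of counts in untreated cells, 0.622 ± 0.0480% with itaconate, 0.543 ± 0.0192% with lipid and 0.543 ± 0.0800% with both (SD, n = 4), and the last ran from 0.449% in letter C to 0.631% in letter A.

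**Figure D1:**
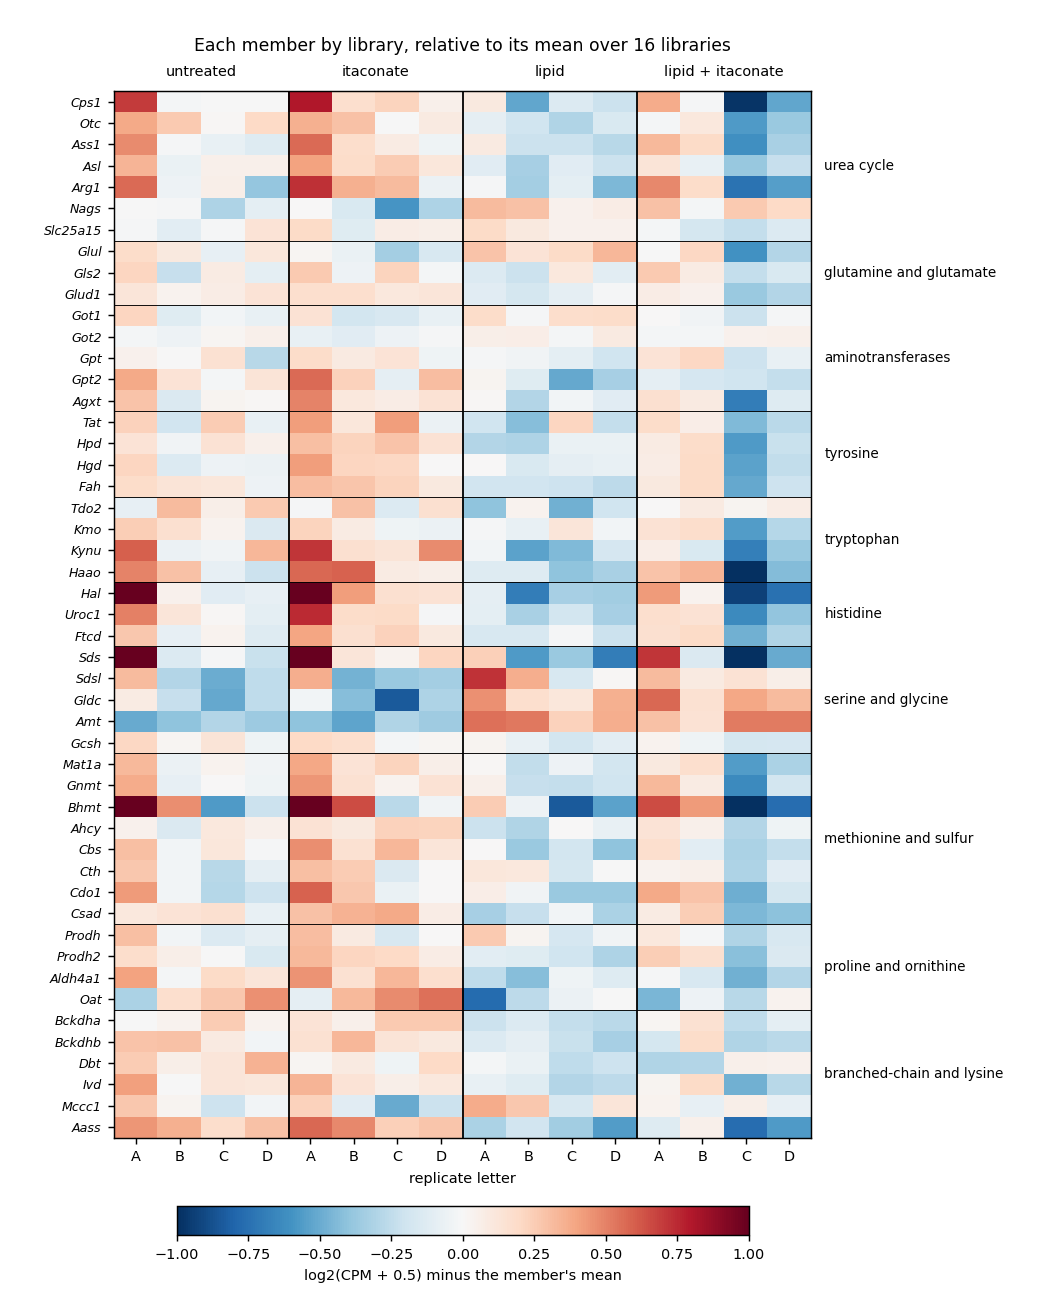
Each row is 1 of the 49 genes, grouped by role, and each column 1 of the 16 libraries. Colour gives the log2 ratio of the gene's CPM to its mean over all libraries. The letter A libraries of the untreated and itaconate-treated groups are high for most rows and the lipid + itaconate library C is low, while *Gldc*, *Amt*, *Nags* and *Sdsl* run the other way between the groups with and without lipid.

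Per kilobase of exon, the most abundant of the 49 in untreated cells were *Ass1*, argininosuccinate synthetase, at 291 ± 60.9 CPM per kb (SD, n = 4), and *Gnmt*, glycine N-methyltransferase, at 275 ± 42.7. They were followed by *Ahcy* at 207 ± 15.3, which splits S-adenosylhomocysteine, by *Cdo1* at 157 ± 37.2, the cysteine dioxygenase, by *Hpd* at 137 ± 8.00 in tyrosine breakdown and by *Glud1*, glutamate dehydrogenase, at 122 ± 3.97. *Ass1* and *Gnmt* differed by less than their spread. The lowest were *Prodh* at 3.91 and *Hal* at 3.69, then *Kynu* at 1.74 and *Mccc1* at 1.59 CPM per kb. *Hal* and *Kynu*, which fell deeply with lipid, were thus among the scarcest of the 49. *Gnmt* held 408, 298, 315 and 305 CPM in untreated cells and *Ahcy* 593, 519.8, 619 and 595 CPM. *Hpd* lay between 269.7 and 306 CPM there, a narrow range beside that of *Ass1*, whose letter A library stood apart.

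**Figure D2:**
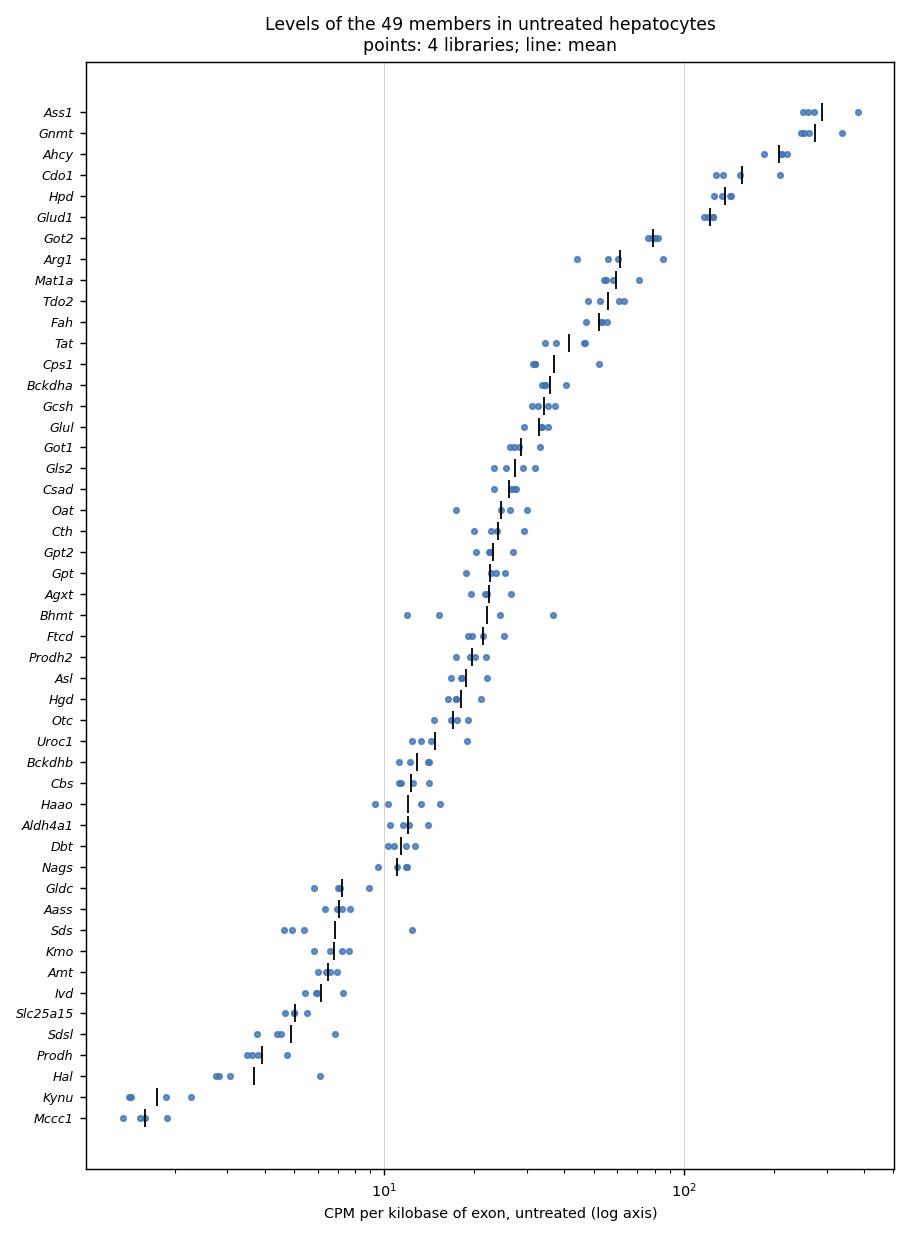
Levels of the 49 genes in untreated hepatocytes, in CPM per kilobase of exon on a log axis, ordered from highest to lowest. Points are the 4 libraries and the bar is their mean. *Ass1* and *Gnmt* lead at 291 and 275, and *Kynu* and *Mccc1* are lowest at 1.74 and 1.59.

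Of the 7 urea cycle genes, lipid changed 3: *Otc* and *Asl* fell and *Nags* rose. *Otc*, ornithine transcarbamylase, joins carbamoyl phosphate to ornithine, and it went from 80.7, 74.1, 62.2 and 71.2 CPM in untreated cells to 58.2, 53.9, 50.01 and 55.7 CPM with lipid. The groups did not overlap (log2 fold change −0.41, SE 0.072, adjusted p = 0.000280). *Asl*, argininosuccinate lyase, held 107, 80.9, 87.7 and 87.4 CPM in untreated and 78.3, 66.9, 78.1 and 72.6 CPM in lipid-treated cells, again without overlap (log2 fold change −0.30, SE 0.07, adjusted p = 0.00265). Both were lower in all 4 letters and fell under every alternative setting that was run.

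*Nags* makes N-acetylglutamate, the activator that carbamoyl phosphate synthetase needs, and it moved the other way. Its 4 untreated libraries held 33.7, 33.5, 27.1 and 31.5 CPM and its lipid-treated ones 42.2, 41.6, 34.8 and 35.5 CPM, higher in all 4 letters and without overlap (log2 fold change 0.28, SE 0.085, adjusted p = 0.0133). This call was close to the threshold: without lipid B the adjusted p was 0.0516 and without untreated C 0.0505. In cells given itaconate, lipid moved *Nags* from 33.9, 30.3, 22.3 and 27.2 to 41.4, 33.3, 40.5 and 38.9 CPM (log2 fold change 0.45, SE 0.085, adjusted p = 0.000587), a call that held under every alternative. Letter A held the highest value of *Nags* in each of the 4 groups.

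The 250 bases upstream of the *Nags* start in RefSeq (GRCm38.p6, chr11:102145263-102145512, plus strand, written 5′ to 3′) are shown because it is the urea cycle gene that rose. Capitals mark the GC box GGGCGG, searched on both strands, which lies at −132 to −127 and −41 to −36 from the start.
Nags: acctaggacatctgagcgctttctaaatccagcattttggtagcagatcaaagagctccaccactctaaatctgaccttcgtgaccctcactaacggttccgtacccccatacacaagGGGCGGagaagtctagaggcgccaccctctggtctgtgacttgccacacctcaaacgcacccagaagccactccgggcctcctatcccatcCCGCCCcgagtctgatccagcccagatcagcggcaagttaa
Over the 37 members with a RefSeq window, 15 windows (40.5%) hold a GC box, against 32.9% of the 27025 windows of all genes. The 3 rising members that have a window (*Nags*, *Gldc*, *Amt*) all hold one, which describes these letters and not a bound factor.

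The other 4 urea cycle genes did not pass the threshold with lipid alone. *Cps1*, carbamoyl phosphate synthetase, held 289, 175, 177 and 177 CPM in untreated and 191, 124, 162 and 154 CPM in lipid-treated cells, lower in 4 of 4 letters but just outside the threshold (log2 fold change −0.36, SE 0.14, adjusted p = 0.0524). *Ass1* held 919.5, 656, 626 and 604 CPM in untreated cells, then 705, 569, 569 and 546 CPM with lipid (log2 fold change −0.23, SE 0.095, adjusted p = 0.0616). *Arg1*, the arginase that releases urea, held 191, 124, 134 and 98.3 CPM, then 128, 102, 121 and 94.5 CPM (log2 fold change −0.27, SE 0.14, adjusted p = 0.113). For all 3, the range within each group was wider than the difference between the group means, with letter A highest in both. *Slc25a15*, the carrier that exchanges ornithine and citrulline across the inner mitochondrial membrane, held 28.1, 26.3, 28.1 and 31.2 CPM in untreated and 32.4, 30.4, 29.2 and 29.2 CPM in lipid-treated cells (log2 fold change 0.08, SE 0.061, adjusted p = 0.294).

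In cells that also had itaconate, all 7 urea cycle genes passed the threshold with lipid, *Nags* higher and the other 6 lower. *Cps1* went from 311, 200.2, 207 and 185 CPM with itaconate alone to 230.1, 176, 90.0 and 124 CPM with both (log2 fold change −0.57, SE 0.14, adjusted p = 0.00451). *Otc* went from 79.4, 75.9, 61.7 and 66.0 to 61.1, 66.6, 41.6 and 47.6 CPM (log2 fold change −0.40, SE 0.072, adjusted p = 0.000401), and *Asl* from 112, 96.0, 101 and 91.5 to 92.2, 80.3, 64.8 and 72.0 CPM (log2 fold change −0.38, SE 0.07, adjusted p = 0.000452). In each of the 3 genes the lowest of the 8 libraries was lipid + itaconate C. *Ass1* fell from 976, 747, 701 and 642 to 825, 753, 432 and 527 CPM (log2 fold change −0.29, SE 0.095, adjusted p = 0.0197), lower in 3 of 4 letters, and *Arg1* from 214, 165, 160.4 and 124 to 180.2, 147, 77.1 and 88.0 CPM (log2 fold change −0.46, SE 0.14, adjusted p = 0.0108). *Slc25a15* fell from 32.4, 26.0, 29.9 and 29.6 to 28.0, 25.1, 24.0 and 25.7 CPM (log2 fold change −0.20, SE 0.061, adjusted p = 0.0133). The *Ass1* call was lost without itaconate C (adjusted p = 0.0715), lipid + itaconate C (0.0590) or lipid + itaconate D (0.0578), and that of *Slc25a15* without itaconate C (0.0563). With letter A left out the *Ass1* call was lost too (0.0524), and with library totals alone that of *Slc25a15* (0.0646). Without lipid + itaconate C the log2 fold change was −0.28 for *Arg1*, still called, and −0.17 for *Ass1*.

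Of the 3 glutamine and glutamate genes, lipid lowered *Glud1*, which releases ammonia from glutamate. It fell by 0.20 on the log2 scale (SE 0.076, adjusted p = 0.0417) and, with itaconate present, by 0.27 (SE 0.076, adjusted p = 0.00803). Its groups did not overlap in either comparison, since its untreated libraries lay between 494 and 529 CPM and its lipid-treated ones between 428 and 479.5 CPM. The call with lipid alone was lost without any 1 of lipid A or B, untreated A, C or D, or itaconate A, B, C or D, with adjusted p from 0.0502 to 0.144. It was lost too with library totals alone (0.145), with letter A left out (0.124) and without the letter in the model (0.0690). *Glul*, glutamine synthetase, held 117, 111, 97.4 and 112 CPM in untreated and 126, 113, 118 and 130.4 CPM in lipid-treated cells, and *Gls2*, the liver glutaminase, held 110.4, 80.7, 101 and 88.8 CPM, then 86.4, 81.5, 102 and 88.2 CPM. Neither passed the threshold in a lipid comparison (*Glul* 0.15 and −0.03, *Gls2* −0.09 and −0.11, without and with itaconate). With both treatments *Gls2* held 114, 100.3, 80.2 and 85.5 CPM, and with itaconate alone 114, 91.7, 111 and 93.8 CPM, groups that overlapped.

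Of the 5 aminotransferases, *Gpt2*, the mitochondrial alanine aminotransferase, fell with lipid in all 4 letters (log2 fold change −0.40, SE 0.067, adjusted p = 0.000178) and again in itaconate-treated cells (log2 fold change −0.43, SE 0.067, adjusted p = 9.81e-05). Its cytosolic counterpart *Gpt* had log2 fold changes of −0.08 and −0.08, neither past the threshold. The aspartate aminotransferases *Got1* and *Got2* stood at 0.12 and 0.04 with lipid, also not called. *Agxt*, the alanine-glyoxylate aminotransferase, missed the threshold with lipid alone and passed it where itaconate was present (−0.16 without and −0.33 with it, adjusted p = 0.0255). That call was lost without itaconate A (0.0677), itaconate C (0.0581), lipid + itaconate C (0.0639) or lipid + itaconate D (0.0523).

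The 5 serine and glycine genes all changed with lipid, in both directions. *Gldc* and *Amt* encode the glycine decarboxylase and the aminomethyltransferase of the mitochondrial glycine cleavage system, and both rose. *Gldc* (chr19, minus strand) went from 54.1, 43.5, 35.5 and 42.6 CPM in untreated cells to 70.1, 57.2, 55.2 and 65.3 CPM with lipid, and the lowest lipid-treated library lay just above the highest untreated one (log2 fold change 0.49, SE 0.083, adjusted p = 0.000187). *Amt* (chr9, plus strand) went from 14.6, 15.6, 16.9 and 16.1 CPM to 30.9, 30.3, 24.6 and 27.0 CPM (log2 fold change 0.82, SE 0.093, adjusted p = 4.69e-06). This was the largest rise of the 49 genes, a 77.0% higher level, with a wide gap between the groups. With itaconate present, *Gldc* went from 50.1, 37.7, 28.2 and 41.0 to 76.1, 56.8, 66.8 and 63.6 CPM (log2 fold change 0.76, SE 0.083, adjusted p = 4.26e-06) and *Amt* from 15.7, 14.3, 16.8 and 16.2 to 25.7, 23.2, 30.1 and 30.2 CPM (log2 fold change 0.79, SE 0.092, adjusted p = 8.30e-06). Both genes were higher in all 4 letters of both comparisons, without overlap, and stayed called under every alternative setting.

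*Gcsh*, which encodes the lipoyl-carrying H protein of the same complex, did not follow them. It was lower with lipid in all 4 letters, from 58.8, 51.4, 55.6 and 49.4 to 51.8, 48.3, 44.6 and 47.1 CPM (log2 fold change −0.18, SE 0.047, adjusted p = 0.00615), and from 58.3, 57.1, 50.2 and 51.4 to 52.0, 49.3, 44.9 and 45.1 CPM where itaconate was present (log2 fold change −0.18, SE 0.047, adjusted p = 0.00454). The fall is small, and with library totals alone in place of TMM the first of these was not called (adjusted p = 0.111).

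The upstream sequences of the 3 glycine cleavage genes are shown so that the pair that rose can be set beside the subunit that fell (RefSeq, GRCm38.p6, written 5′ to 3′ on the gene's strand). They are *Gldc* at chr19:30175442-30175691 (minus strand), *Amt* at chr9:108296655-108296852 (plus) and *Gcsh* at chr8:116993538-116993748 (minus), the last pair without the bases that lie in a GENCODE exon. Capitals mark matches on either strand to the CCAAT box (CCAAT) and the GC box (GGGCGG).
Gldc: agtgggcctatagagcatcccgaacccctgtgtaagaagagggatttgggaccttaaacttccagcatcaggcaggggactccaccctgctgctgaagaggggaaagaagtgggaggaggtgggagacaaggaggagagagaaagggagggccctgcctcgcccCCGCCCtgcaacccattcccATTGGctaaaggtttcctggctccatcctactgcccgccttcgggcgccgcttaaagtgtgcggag
Amt: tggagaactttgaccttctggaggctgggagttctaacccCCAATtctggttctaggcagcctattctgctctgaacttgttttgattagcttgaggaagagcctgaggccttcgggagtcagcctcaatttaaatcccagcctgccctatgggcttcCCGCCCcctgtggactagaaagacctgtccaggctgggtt
Gcsh: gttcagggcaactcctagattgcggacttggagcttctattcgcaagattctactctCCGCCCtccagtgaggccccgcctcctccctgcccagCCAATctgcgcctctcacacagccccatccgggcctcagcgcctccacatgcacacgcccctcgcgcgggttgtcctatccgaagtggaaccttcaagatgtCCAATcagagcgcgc
All 3 hold both motifs. In *Gldc* the CCAAT box is at −66 to −62 and the GC box at −86 to −81, in *Amt* they are at −210 to −206 and −92 to −87, and in *Gcsh* CCAAT is at −156 to −152 and −54 to −50 and the GC box at −193 to −188, with another GC box at −27 to −22 in the bases not printed. The gene that fell thus holds the same motifs as the pair that rose. CCAAT was in 22 of the 37 member windows (59.5%) and in 34.5% of the windows of all genes.

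Serine dehydratase and its relative moved apart. *Sds*, the enzyme that turns serine into pyruvate and ammonia, held 20.99, 8.32, 9.14 and 7.82 CPM in untreated and 11.0, 6.08, 7.03 and 5.53 CPM in lipid-treated cells (log2 fold change −0.59, SE 0.18, adjusted p = 0.0127). Letter A was the highest library in each group and the groups overlapped, although every letter fell. The call was lost without lipid A (adjusted p = 0.0689) or untreated C (0.0528), and without all of letter A (0.115). *Sdsl*, the serine dehydratase-like gene, held 10.2, 6.55, 5.62 and 6.76 CPM, then 13.8, 10.6, 7.24 and 8.23 CPM with lipid, and rose in all 4 letters (log2 fold change 0.44, SE 0.12, adjusted p = 0.00841). In cells with itaconate *Sds* went from 25.9, 10.1, 9.47 and 10.8 to 15.5, 8.31, 3.56 and 6.34 CPM (log2 fold change −0.75, SE 0.17, adjusted p = 0.00219) and *Sdsl* from 10.6, 5.71, 6.17 and 6.33 to 10.3, 8.70, 9.05 and 8.52 CPM (log2 fold change 0.37, SE 0.12, adjusted p = 0.0209). The second *Sdsl* rise was seen in 3 of 4 letters and was lost without itaconate B (0.0952), itaconate D (0.0505), lipid + itaconate C (0.0854) or lipid + itaconate D (0.0575).

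**Figure D3:**
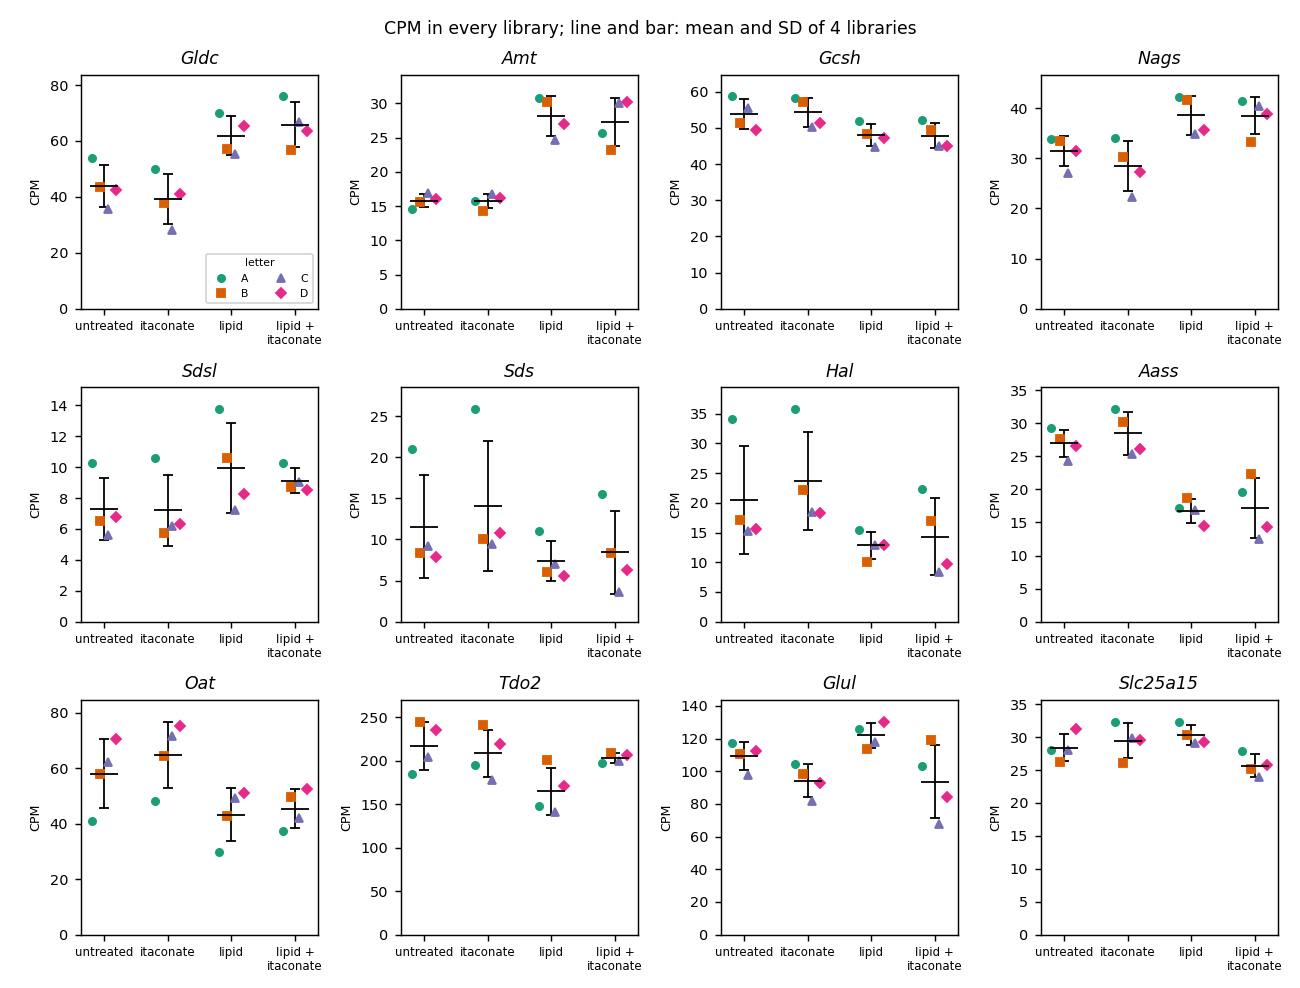
CPM of 12 members in each library, by group, with a point for each letter and a bar at the group mean. *Gldc* and *Amt* are higher in both lipid groups than in the groups without lipid, *Gcsh*, *Hal*, *Aass*, *Sds* and *Oat* are lower on average, and *Tdo2* is low in the lipid group (140.8 to 201 CPM) but not with lipid and itaconate together (197 to 209 CPM).

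Of the 3 histidine genes, *Hal* and *Uroc1* fell with lipid and all 3 with lipid in itaconate-treated cells. *Hal*, the histidase that removes ammonia from histidine, held 34.0, 17.0, 15.2 and 15.6 CPM in untreated and 15.5, 10.0, 13.0 and 12.8 CPM in lipid-treated cells (log2 fold change −0.60, SE 0.17, adjusted p = 0.00774). Untreated A stood far above the other untreated libraries, and without all of letter A the fall was not called (adjusted p = 0.100). With itaconate, *Hal* went from 35.8, 22.2, 18.4 and 18.3 to 22.3, 16.9, 8.40 and 9.65 CPM (log2 fold change −0.75, SE 0.16, adjusted p = 0.00158). *Uroc1*, urocanase, changed by −0.38 and −0.45 in the same comparisons, the first call being lost without lipid A (0.0508). *Ftcd*, which passes the formimino group of histidine to folate, stood at −0.17 with lipid, not called, and fell by 0.32 where itaconate was present. That call was lost without itaconate C (0.0601), lipid + itaconate C (0.0631) or lipid + itaconate D (0.0657).

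In tryptophan breakdown, *Tdo2*, *Kynu* and *Haao* fell with lipid. *Tdo2*, the dioxygenase that opens the indole ring and starts the kynurenine route, held 185, 245, 204 and 236 CPM in untreated and 148, 201, 141 and 171 CPM in lipid-treated cells, lower in all 4 letters (log2 fold change −0.41, SE 0.059, adjusted p = 4.18e-05). It was not called where itaconate was present, at 195, 241, 178 and 219.8 CPM without and 197, 209, 199.9 and 207 CPM with lipid (log2 fold change −0.03, SE 0.059, adjusted p = 0.723). *Kynu*, kynureninase, went from 13.9, 8.67, 8.82 and 11.5 to 8.87, 6.08, 6.51 and 7.96 CPM (log2 fold change −0.54, SE 0.11, adjusted p = 0.000577) and, with itaconate, from 15.1, 10.1, 9.92 and 12.7 to 9.47, 8.08, 5.42 and 6.87 CPM without overlap (log2 fold change −0.68, SE 0.10, adjusted p = 8.29e-05). Both falls of *Kynu* held under every alternative. *Haao*, which makes the precursor of quinolinate, changed by −0.38 and −0.50, and the first call was lost without lipid A (adjusted p = 0.0955), lipid B (0.0909), untreated A (0.0692) or untreated C (0.0917). *Kmo*, kynurenine monooxygenase, stood at −0.08 and −0.17 and was not called.

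Of the 4 genes of the tyrosine route, lipid lowered 1 without itaconate and 3 where it was present, and the interaction was called for none of them. *Fah*, the last enzyme of the route, fell in both comparisons (−0.32 and −0.33, lower in all 4 letters each time). *Hpd* held 304, 269.7, 306 and 287 CPM in untreated and 226, 223, 264 and 264 CPM in lipid-treated cells, groups that did not overlap although the change missed the threshold (log2 fold change −0.26, SE 0.12, adjusted p = 0.0794). With itaconate it went from 339.6, 323, 336 and 305 to 292, 314, 186 and 236 CPM (log2 fold change −0.35, SE 0.12, adjusted p = 0.0235), a call lost without itaconate C (0.0744), lipid + itaconate C (0.0682, log2 fold change −0.19) or lipid + itaconate D (0.0787). *Hgd*, the homogentisate dioxygenase, stood at −0.08 and fell by 0.33 with itaconate, a call lost without itaconate C (0.0515). *Tat*, the tyrosine aminotransferase, was at −0.22 and −0.32 and was not called (adjusted p = 0.175 and 0.0532).

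Among the 8 genes of methionine and sulfur metabolism, lipid lowered *Bhmt*, *Cbs* and *Csad*. *Bhmt*, which returns homocysteine to methionine with betaine, held 212, 141, 68.8 and 88.0 CPM in untreated and 122, 98.3, 56.6 and 70.1 CPM in lipid-treated cells (log2 fold change −0.49, SE 0.12, adjusted p = 0.00405). Its letters differed more than its groups, since letters A and B were above letters C and D in every group, yet each letter was lower with lipid. With itaconate it went from 230.3, 160.3, 84.6 and 99.3 to 161, 137, 38.6 and 60.0 CPM (log2 fold change −0.62, SE 0.12, adjusted p = 0.000750). *Cbs*, cystathionine beta-synthase, fell by 0.34 and 0.39 on the log2 scale (adjusted p = 0.000202 and 6.43e-05) and held under every alternative. *Csad*, which makes hypotaurine, fell by 0.31 and 0.39, and the first call was lost without lipid A (0.0880), lipid B (0.0909), untreated C (0.0733) or untreated D (0.0652).

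*Gnmt*, *Cdo1*, *Cth* and *Mat1a* missed the threshold with lipid alone and passed it where itaconate was present, with no interaction called. *Gnmt* went from 408, 298, 315 and 305 to 326, 269, 266 and 275 CPM with lipid (log2 fold change −0.23, SE 0.093, adjusted p = 0.0529) and from 428, 350.3, 322 and 347 to 395, 334, 202 and 278 CPM in itaconate-treated cells (log2 fold change −0.28, SE 0.093, adjusted p = 0.0198). *Cdo1* held 346, 253, 211 and 223 CPM without and 269, 251, 199 and 199 CPM with lipid (log2 fold change −0.17, SE 0.07, adjusted p = 0.0624), and went from 388, 311, 246 and 258 to 335, 313, 183 and 227 CPM with itaconate (log2 fold change −0.20, SE 0.07, adjusted p = 0.0272). *Cth*, cystathionine gamma-lyase, held 81.8, 66.2, 55.6 and 63.3 CPM without and 73.2, 72.6, 59.6 and 67.6 CPM with lipid (log2 fold change 0.03, SE 0.052, adjusted p = 0.666) and went from 83.5, 80.7, 61.2 and 67.8 to 69.3, 70.2, 54.5 and 62.6 CPM with itaconate (log2 fold change −0.19, SE 0.052, adjusted p = 0.00699). The changes of *Gnmt* and *Cdo1* had the same sign and similar size in both comparisons, while that of *Cth* turned from slightly above 0 to a fall. *Mat1a*, the liver enzyme for S-adenosylmethionine, stood at −0.19 and fell by 0.34. *Ahcy* was called in neither, at 497, 468, 577 and 547 CPM with lipid, 637, 616, 674 and 671 CPM with itaconate and 632, 596, 471 and 559.8 CPM with both (log2 fold changes −0.17 and −0.20). The calls made with itaconate present were lost for *Gnmt* without itaconate C (0.0587) or lipid + itaconate D (0.0536), for *Mat1a* without itaconate C (0.0513), and for *Cdo1* without itaconate A (0.0600), C (0.0782) or D (0.0520) or lipid + itaconate C (0.104) or D (0.0573). Without lipid + itaconate C the log2 fold change was −0.15 for *Gnmt* and −0.12 for *Cdo1*.

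Of the 4 proline and ornithine genes, 3 fell with lipid. *Oat*, ornithine aminotransferase, went from 41.1, 57.7, 62.1 and 70.7 to 29.8, 42.8, 49.2 and 51.2 CPM (log2 fold change −0.43, SE 0.067, adjusted p = 8.96e-05) and, with itaconate, from 48.2, 64.3, 71.5 and 75.2 to 37.3, 49.6, 42.1 and 52.4 CPM (log2 fold change −0.51, SE 0.066, adjusted p = 2.26e-05). Here letter A was the lowest library of each group, the reverse of the periportal genes *Hal* and *Sds*, and every letter fell in both comparisons. Pericentral *Glul* did not share this order, since letter A was its highest library in untreated and itaconate-treated cells. *Aldh4a1*, the second step of proline oxidation, fell by 0.40 and 0.51 without overlap between the groups, under every alternative. *Prodh2*, which oxidises hydroxyproline, fell by 0.22 and 0.24. Its first call was lost without lipid A (adjusted p = 0.101), B (0.0711) or D (0.0556) or untreated A (0.0639) or C (0.104), and its second without itaconate C (0.0766). *Prodh*, proline dehydrogenase, was at 0.00 with lipid alone and fell by 0.16 in itaconate-treated cells, a call lost without letter A (0.0729), with library totals alone (0.0777), with no filter (0.109) and without the letter in the model (0.324).

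The branched-chain and lysine genes held the largest fall of the 49 with lipid alone, that of *Aass*. Where itaconate was present, *Sds*, *Hal* and *Aass* fell by like amounts (−0.75 each). *Aass* encodes the bifunctional enzyme of the first steps of lysine breakdown. It held 29.3, 27.6, 24.3 and 26.5 CPM in untreated and 17.1, 18.7, 16.8 and 14.4 CPM in lipid-treated cells (log2 fold change −0.70, SE 0.098, adjusted p = 3.65e-05), and went from 32.2, 30.2, 25.4 and 26.1 to 19.6, 22.3, 12.5 and 14.3 CPM in cells with itaconate (log2 fold change −0.75, SE 0.097, adjusted p = 1.93e-05). Neither pair of groups overlapped, and the fall held under every alternative. The 3 members that encode subunits of the branched-chain ketoacid dehydrogenase fell by like amounts with lipid, *Bckdha* by 0.31, *Bckdhb* by 0.38 and *Dbt* by 0.35 on the log2 scale, none with overlap between the groups. *Ivd*, the isovaleryl-CoA dehydrogenase of leucine breakdown, fell by 0.37. With itaconate present the falls were 0.22 for *Bckdha*, 0.33 for *Bckdhb* and 0.29 for *Ivd*, and *Dbt* was not called (log2 fold change −0.19, SE 0.086, adjusted p = 0.0778). *Mccc1* of the next leucine step stood at 0.13 and 0.13, not called. With itaconate present, the *Bckdha* call was lost without itaconate C (0.104) or D (0.121) or lipid + itaconate C (0.131) or D (0.0917), and that of *Ivd* without lipid + itaconate C (0.0554) or D (0.0543). With letter A left out both were lost (0.0559 and 0.0657). *Bckdha* was also lost with library totals alone (0.0648) and with only the 8 libraries (0.0739).

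The upstream windows of *Hal*, *Oat* and *Aass*, the genes of 3 routes that fell deeply, are given for comparison with the pair that rose (RefSeq, GRCm38.p6, 5′ to 3′). They lie at chr10:93488518-93488767 (plus strand), chr7:132576399-132576648 (minus) and chr6:23132987-23133236 (minus). Capitals mark the CCAAT box, the TATA box (TATAAA), a C/EBP match (TTNNGCAA) and the cAMP element core (TGACG), all searched on both strands.
Hal: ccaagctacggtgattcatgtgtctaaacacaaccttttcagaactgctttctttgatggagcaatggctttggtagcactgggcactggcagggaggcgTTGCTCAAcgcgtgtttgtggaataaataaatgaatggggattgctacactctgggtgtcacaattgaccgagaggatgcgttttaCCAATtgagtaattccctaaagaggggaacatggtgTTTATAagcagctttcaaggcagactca
Oat: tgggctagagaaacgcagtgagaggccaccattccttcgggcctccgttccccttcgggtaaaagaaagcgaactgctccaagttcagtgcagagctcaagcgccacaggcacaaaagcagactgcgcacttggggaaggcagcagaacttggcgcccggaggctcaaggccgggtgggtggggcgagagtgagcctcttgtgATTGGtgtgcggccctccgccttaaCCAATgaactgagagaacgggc
Aass: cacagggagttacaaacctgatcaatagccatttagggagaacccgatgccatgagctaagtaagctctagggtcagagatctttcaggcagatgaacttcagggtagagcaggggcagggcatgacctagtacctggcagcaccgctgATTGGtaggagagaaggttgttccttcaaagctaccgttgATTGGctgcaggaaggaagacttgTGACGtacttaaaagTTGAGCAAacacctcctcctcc
Each of the 3 holds CCAAT, at −64 to −60 in *Hal*, −47 to −43 and −22 to −18 in *Oat*, and −101 to −97 and −61 to −57 in *Aass*. *Hal* has a TATA box at −28 to −23, which 13.5% of the member windows and 13.0% of all windows hold. The C/EBP letters are at −150 to −143 in *Hal* and −22 to −15 in *Aass*, and they occur in 10.8% of member windows and 9.55% of all. The cAMP core is at −37 to −33 in *Aass* and was the scarcer one among members, 8.11% against 17.9%. Of the 19 windows of members that fell with lipid, 13 hold CCAAT (68.4%). So do 2 of the 3 windows of members that rose (66.7%) and 7 of the 15 of members not called (46.7%). Of the other motifs searched, the HNF1 half-site GTTAAT was in 4 member windows (10.8%, all genes 6.52%) and the HNF4 site CAAAGTCC in 0 (all genes 1.22%).

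**Figure D4:**
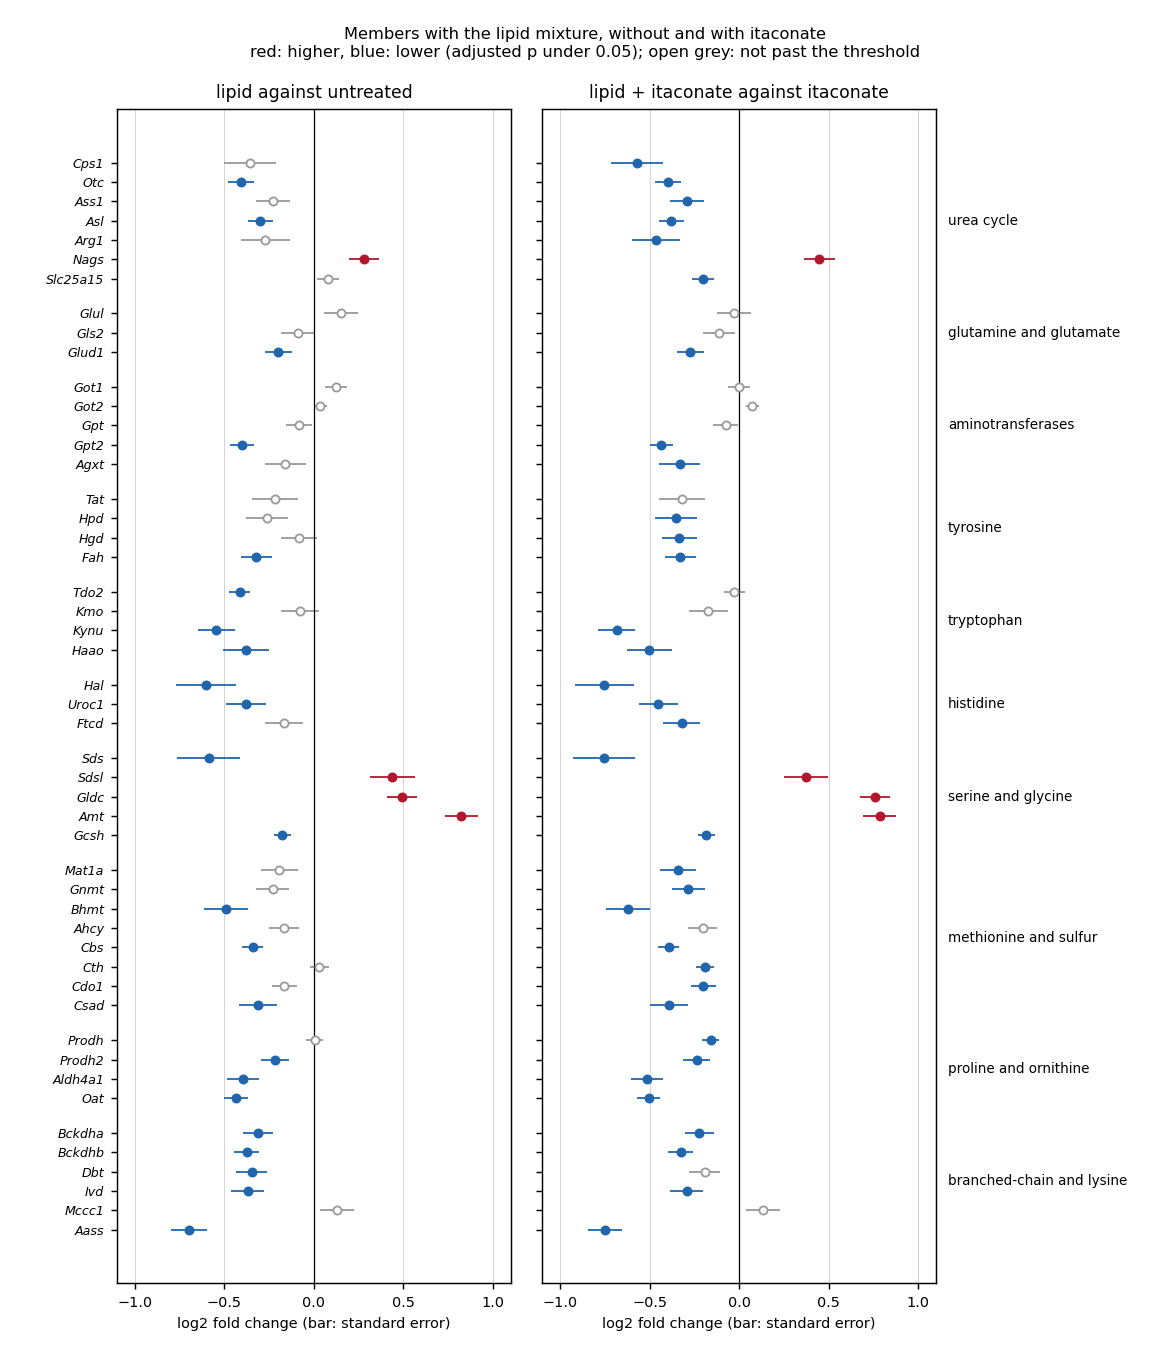
Log2 fold change with lipid of each of the 49 genes, grouped by role, without itaconate and in its presence. Bars show the SE on either side of the point, and filled points have an adjusted p under 0.05. Most points lie left of 0 in both comparisons, and *Amt*, *Gldc*, *Nags* and *Sdsl* lie to the right.

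In itaconate-treated cells, lipid changed 38 of the 49 genes, 34 lower and the same 4 higher, where 47% of all genes tested were called (23.5% higher and 23.5% lower). The median log2 fold change of the 49 was −0.29 (−0.19 without lipid + itaconate C), and 43 values lay below 0. The comparisons with and without itaconate share no library, but they come from the same model with common letter terms and are not independent. Called in both were 25 genes, each in the same direction, which is 92.6% of the 27 and 65.8% of the 38. Over all genes the corresponding shares were 75.8% and 76.7%, from 4206 genes called in both. *Dbt* and *Tdo2* passed only without itaconate, 13 genes passed only with it, and *Ahcy*, *Gls2*, *Glul*, *Got1*, *Got2*, *Gpt*, *Kmo*, *Mccc1* and *Tat* passed in neither. That a gene passed in 1 comparison alone does not show a difference between them, and the interaction called none of the 49. Without the replicate letter in the model the counts were 15 and 18 genes in place of 27 and 38. Of the genes with library values here, the calls lost in that model were those of *Nags*, *Hal*, *Sds*, *Sdsl*, *Gcsh*, *Bhmt* and *Oat* with lipid (adjusted p from 0.0568 to 0.329) and those of *Cps1*, *Ass1*, *Arg1*, *Hal*, *Sds*, *Sdsl*, *Gcsh*, *Gnmt*, *Bhmt*, *Cth* and *Cdo1* with lipid in itaconate-treated cells (0.0517 to 0.482).

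Within letters, the median log2 ratio of the 49 genes with lipid was −0.32 in letter A, −0.19 in B, −0.17 in C and −0.15 in D, with 37 to 41 genes lower in each. In itaconate-treated cells it was −0.24 in A, −0.05 in B, −0.56 in C and −0.31 in D, with 32 to 44 genes lower. The size of the second comparison therefore varied more between letters than that of the first. With lipid, 14 of the 49 genes had groups that did not overlap, against 32.3% of all genes, and with lipid in itaconate-treated cells 6 had, against 31.4%. Leaving out 1 library at a time gave between 21 members called (without untreated C) and 36 (without lipid + itaconate C) with lipid, and between 27 (without itaconate C) and 41 (without lipid + itaconate B) in the presence of itaconate.

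Itaconate alone changed none of the 49 genes at the threshold, where 4.91% of all genes tested were called. At an unadjusted p under 0.05 there were 6. By DESeq2 1 member was called, *Cdo1*, and by limma-trend 0. The log2 fold changes ran from −0.23 to 0.28 with a median of 0.12, and 36 of the 49 lay above 0, though genes read in the same libraries are not separate observations. The count of members called depended on the model: it was 5 without lipid + itaconate C (*Arg1*, *Cbs*, *Cdo1*, *Oat*, *Prodh2*), 1 without lipid + itaconate B (*Cdo1*), and 26 (23 higher and 3 lower) in a model of the 8 libraries of this comparison alone, which called 1865 of all genes in place of 573.

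In lipid-treated cells, itaconate changed 3 of the 49 genes, 1 higher and 2 lower, where 2.58% of all genes tested were called (1.32% higher and 1.26% lower). *Tdo2* (chr3, minus strand) held 148, 201, 141 and 171 CPM with lipid and 197, 209, 199.9 and 207 CPM with lipid and itaconate, higher in all 4 letters (log2 fold change 0.31, SE 0.059, adjusted p = 0.0135). The 4 libraries with both treatments lay within 197 to 209 CPM, a narrower range than in any other group. *Glul* went from 126, 113, 118 and 130.4 to 103, 119, 67.7 and 84.2 CPM, lower in 3 of 4 letters and higher in letter B (log2 fold change −0.41, SE 0.095, adjusted p = 0.0352). *Slc25a15* went from 32.4, 30.4, 29.2 and 29.2 to 28.0, 25.1, 24.0 and 25.7 CPM, lower in all 4 letters and without overlap (log2 fold change −0.24, SE 0.061, adjusted p = 0.0489), the only 1 of the 49 without overlap where 5.67% of all genes had none.

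These 3 calls depended on single libraries and on the letter in the model. *Tdo2* lost its call without lipid A (adjusted p = 0.0502), lipid D (0.0502) or lipid + itaconate A (0.0743), and without all of letter A (0.140). *Glul* lost it without lipid A (0.0570), C (0.0975) or D (0.123), lipid + itaconate A (0.0879) or D (0.111), or untreated A (0.0501) or D (0.0527). *Slc25a15* stayed under 0.05 in 7 of 25 alternatives, with adjusted p from 0.0228 to 0.273, and was lost without any 1 of the 4 lipid or the 4 lipid + itaconate libraries, itaconate A, C or D, or untreated B or C. *Tdo2* stayed under 0.05 in 18 and *Glul* in 15 of the 25. The number of members called ran from 0 (without lipid A, lipid D or lipid + itaconate A) to 11 (without lipid + itaconate C), and was 0 without letter A and 0 with no term for the letter. With library totals alone it was again 3, but all lower, because *Got1* took the place of *Tdo2*.

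The members not called with itaconate in lipid-treated cells lay between −0.20 (*Got1*) and 0.18 (*Bckdha*), with a median of 0.06 over all 49 and 31 above 0. Within letters this median was 0.19 in A and 0.28 in B but −0.28 in C and −0.04 in D, so the letters went in opposite directions. In the comparison of itaconate with untreated cells it was 0.09, 0.15, 0.11 and 0.09 in letters A to D. The largest values of *Arg1* (0.28), *Sds* (0.26), *Hal* (0.23) and *Cdo1* (0.21) with itaconate alone had adjusted p of 0.247, 0.382, 0.437 and 0.0913. Each of the 4 was higher in all 4 letters, by less than its letters differed.

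**Figure D5:**
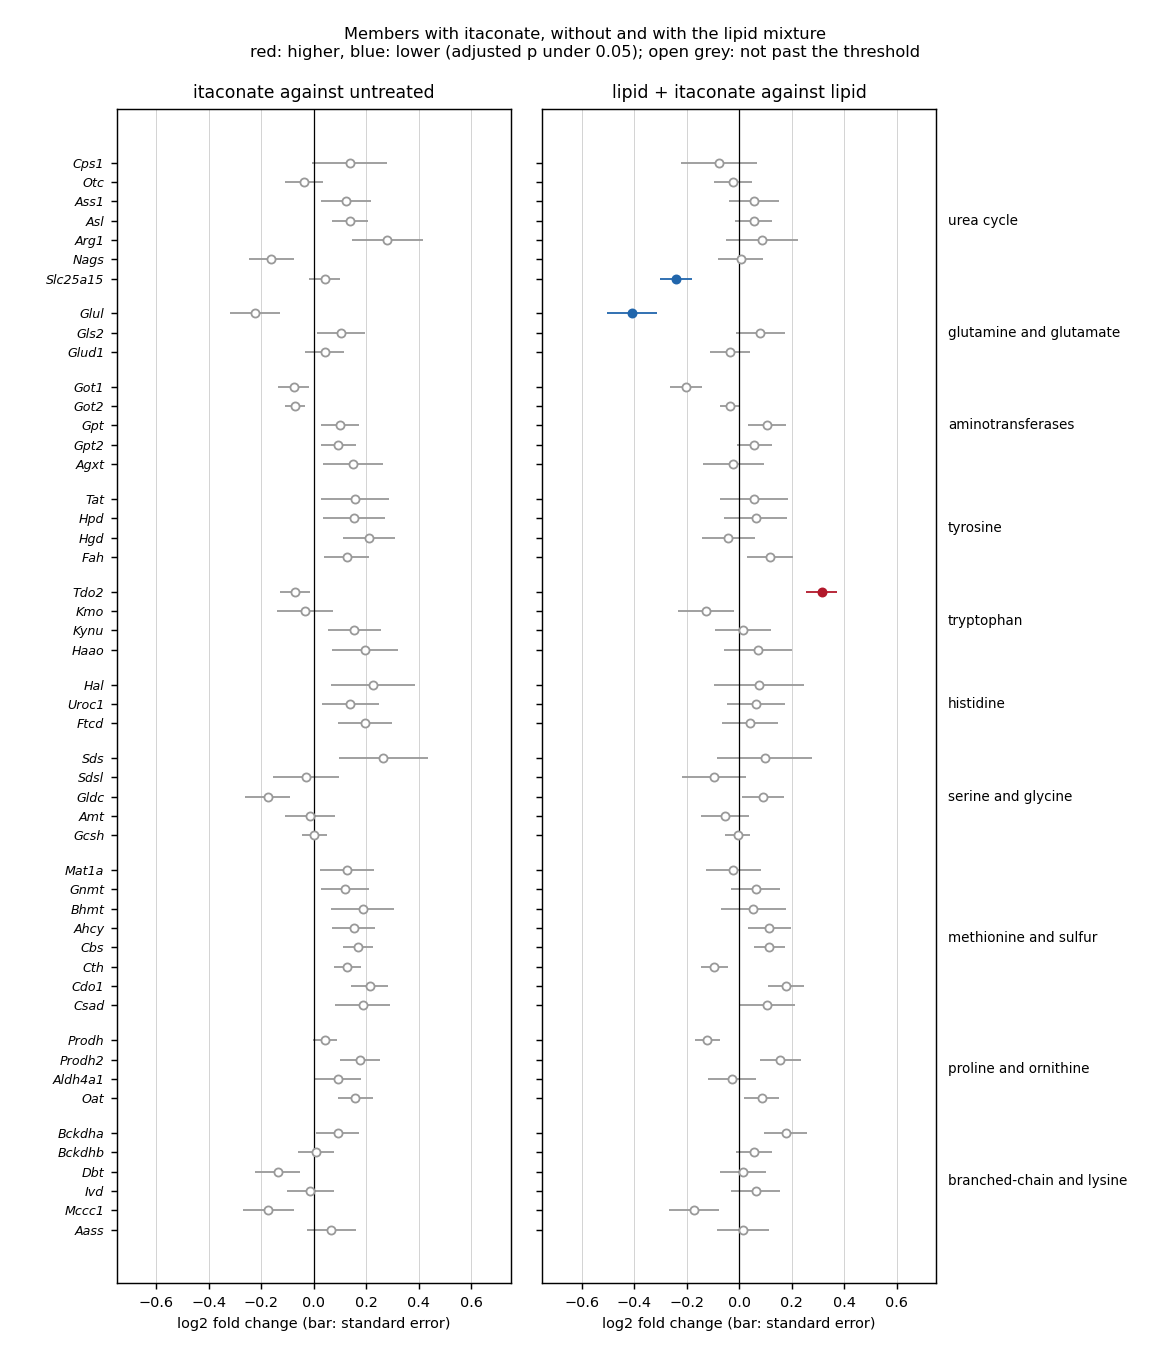
Log2 fold change with itaconate of each of the 49 genes, in cells without lipid and in lipid-treated cells. Bars show the SE on either side of the point, and filled points have an adjusted p under 0.05. Only *Tdo2*, *Glul* and *Slc25a15* are filled, all in lipid-treated cells.

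The interaction asks whether the change with lipid and itaconate together differs from the sum of both. None of the 49 genes passed it in edgeR, where 0.00857% of all genes tested did, and 5 had an unadjusted p under 0.05. By DESeq2 1 member passed, *Tdo2*, and by limma-trend 0. The 3 members with the smallest p were *Tdo2* (log2 fold change 0.39, SE 0.083, adjusted p = 0.168), *Slc25a15* (log2 fold change −0.28, SE 0.086, adjusted p = 0.357) and *Cth* (log2 fold change −0.22, SE 0.074, adjusted p = 0.403). *Tdo2* passed in 3 of its 24 alternatives, 1 of them without lipid + itaconate B.

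Neighbouring genes of the same routes, taken as lists by role, were read in the same model. Of all genes tested, 47.5% were called with lipid, 23.8% higher and 23.7% lower. In the lists below, in order, 90.9%, 71.4%, 55% and 54.5% were called, the last pair near the share of all genes. Of 11 other genes of urea, glutamine and arginine metabolism, 4 rose and 6 fell with lipid. *Pycr1* and *Aldh18a1*, which make proline from glutamate, rose by 1.11 and 0.83 on the log2 scale, and *Arg2*, the mitochondrial arginase, fell by 0.99. In proline breakdown the member *Aldh4a1* fell, while *Prodh* stood at 0.00 and was not called. Of 14 other genes of aromatic amino acid and histidine breakdown, 2 rose and 8 fell, with *Acmsd* at −0.85, *Kyat3* at −0.78 and *Ido2* at −0.55. Of 20 other branched-chain and lysine genes, 2 rose and 9 fell. *Bckdk*, the kinase that switches the branched-chain dehydrogenase off, rose by 0.42, and *Ppm1k*, the phosphatase that switches it on, fell by 0.46. Of 22 other methionine, glycine and sulfur genes, 5 rose and 7 fell, among them *Mat2a* at 0.64, *Mpst* at 0.50 and *Chdh*, which makes the betaine used by *Bhmt*, at −0.64. Where itaconate was present, the counts of genes higher and lower were 4 and 5, 2 and 9, 1 and 8, and 5 and 7 in the same order. The shares called were 81.8%, 78.6%, 45% and 54.5%, where 47% of all genes tested were called.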

How the data were processed

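The values deposited by the authors are expected counts per gene from RSEM 1.3.1, without normalization. Per the labels and the study's methods, libraries from a stranded mRNA kit were sequenced from RNA with an RIN above 8.0, reads went through bcl2fastq 2.20, cutadapt 1.18 for trimming and STAR 2.7.0f for alignment (mm10), and Picard 2.18.26 gave alignment metrics. RSEM splits a multi-mapping read between its possible genes, so a gene with a near-identical copy is less certain, and the strand setting of the counting is not given in the sources used here. All 55450 identifiers were found in the GENCODE annotation of GRCm38, which gave positions and exon lengths.

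After rounding to integers, the 11675 genes whose mean over the 16 libraries reached 1 CPM were fitted in edgeR 4.0.16 (R 4.3.3) after TMM normalization. A single quasi-likelihood model held every library, with terms for treatment and letter, and p-values were adjusted by Benjamini-Hochberg across all fitted genes (threshold 0.05). The labels give the letters but not what they stand for. Same-letter libraries deviated from their group means together in all 24 pairs (correlation 0.144 to 0.469, median 0.263), so the letter was kept as a block. In 72 pairs of other letters the median was −0.114 and the maximum 0.178. Deviations from a group mean cancel within the group, so positive same-letter values draw those of other letters down. The latter are therefore not separate evidence. Comparisons were itaconate against untreated, lipid + itaconate against lipid, lipid against untreated, lipid + itaconate against itaconate, and their interaction. Comparisons that name the same group share its 4 libraries.

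The members and the lists were chosen with earlier results of these data known. Library values are given for members called in an itaconate comparison, the 6 members with the largest rises and the 6 with the largest falls with lipid (mean of at least 5 CPM, 1 direction in all letters), the urea cycle genes, *Glul* and *Gls2*, the 5 highest per length in untreated cells and the 3 smallest interaction p. Of the other lists, at most 3 genes each are named by smallest itaconate p and by largest change with lipid. Library values of *Gcsh* were added after they were seen. The fit was tested on simulated data with 200 changed genes.

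Alternatives were the model without the letter, RLE normalization, library totals alone, filtering by filterByExpr or not at all, a model of the 8 compared libraries alone, DESeq2 1.42.0, limma-trend in limma 3.58.1 (prior count 0.5), each library left out in turn and, chosen after seeing the data, letter A left out. The lowest count of a member in a library was 105 (*Sds*). Upstream sequences are from RefSeq (GRCm38.p6), where 37 of 49 members had a window, and bases in a GENCODE exon were not printed. *Asl*, *Arg1*, *Cdo1*, *Cps1*, *Cth*, *Dbt*, *Gls2*, *Gpt*, *Kynu*, *Mat1a*, *Sds* and *Sdsl* had none.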

Additional observations from a re-analysis of the deposited data

Results flagged for a closer look

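Of 100 group values examined, 10 had a library whose gap to the nearest of the other 3, divided by the group's range, was above Dixon's critical value for 4 samples. In all 10 it was letter A and the highest of the 4. The rate of about 1 in 20 by chance holds for separate samples. Genes read in the same libraries are not separate, so that rate is no yardstick for the 10 flagged values. In untreated cells these were *Ass1* at 919.5 CPM in letter A against 604 to 656 in the others, *Cps1* at 289 against 175 to 177, *Gnmt* at 408 against 298 to 315, *Hal* at 34.0 against 15.2 to 17.0, *Sds* at 20.99 against 7.82 to 9.14, and the share of counts in all 49 genes, 0.662% against 0.563% to 0.572%. In lipid-treated cells they were *Ass1* at 705 CPM against 546 to 569 and *Gnmt* at 326 against 266 to 275. In itaconate-treated cells they were *Sds* at 25.9 CPM against 9.47 to 10.8 and *Sdsl* at 10.6 against 5.71 to 6.33. *Ass1*, *Cps1*, *Hal* and *Sds* are genes of periportal hepatocytes, and *Oat* of pericentral hepatocytes was lowest in letter A in every group. Pericentral *Glul* went the other way. Letter A was its highest library in untreated (117 CPM against 97.4 to 112) and itaconate-treated cells (105 against 81.6 to 98.5). Periportal *Gls2* was highest in letter A in every group but lipid, where it held 86.4 CPM in A and 102 in C. Albumin also took its largest share of counts in letter A. The part of these in the values of letter A was not tested.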

How the results depend on the processing

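The counts of members called depended on the letter in the model. With no replicate block, 0 members were called with itaconate alone and 0 with itaconate in lipid-treated cells (3 with the block), 15 with lipid (27) and 18 with lipid in itaconate-treated cells (38), and 0 for the interaction. Itaconate against untreated gave 0 in the model as reported, 1 with DESeq2, 10 with no filter and 26 when its 8 libraries were fitted alone, and itaconate in lipid-treated cells gave 3, then 5 with no filter, 0 with only the 8 libraries and 0 with letter A left out. The interaction gave 1 with DESeq2 and 1 with no filter, both *Tdo2*, and needs all 4 groups, so it could not be fitted on 8 libraries. Over the libraries left out in turn, members called ranged from 0 to 5 with itaconate, 0 to 11 with itaconate in lipid-treated cells, 21 to 36 with lipid, 27 to 41 with lipid in itaconate-treated cells and 0 to 1 for the interaction. Of the calls, 15 of 27 with lipid, 15 of 38 with lipid in itaconate-treated cells and 0 of 3 with itaconate in lipid-treated cells held under every alternative. No fold change of a called member reversed. With letter A left out, the lipid calls of *Nags*, *Glud1*, *Haao*, *Hal*, *Uroc1*, *Sds*, *Csad* and *Prodh2* were lost. Those lost with lipid in itaconate-treated cells were *Ass1*, *Agxt*, *Hgd*, *Cdo1*, *Prodh*, *Bckdha* and *Ivd*. With library totals alone, *Glud1*, *Gcsh* and *Prodh2* were lost in the first comparison, and *Slc25a15*, *Prodh* and *Bckdha* in the second. Over the 24 members with library values chosen by rule, 2690 values under the alternatives kept their direction and side of the threshold, 79 lost and 89 gained the threshold, and 118 values not called changed sign. The cause of these changes was not tested. A model of 8 libraries, or with a library left out, has fewer libraries, and the members called were more in some of these and fewer in others. With 1 library left out its group keeps 3. *Sds* held the lowest count of a member in a library, and the part of depth in these changes was not tested.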

Other observations

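Genes that carry amino acids across membranes changed in both directions with lipid, 5 higher and 5 lower of 17 tested. That is 58.8% called, against 47.5% of all genes tested. *Slc1a2*, a glutamate carrier of pericentral hepatocytes, fell by 0.84 on the log2 scale (SE 0.23, adjusted p = 0.00691), *Slc38a2*, a carrier of small neutral amino acids, fell by 0.49 (SE 0.039), and *Slc7a1*, a carrier of arginine and lysine, rose by 0.49 (SE 0.17). Itaconate without lipid moved 3 of the 17 (17.6%), against 4.91% of all genes tested. *Slc38a2* rose by 0.27 (adjusted p = 0.00115), *Slc43a1*, a carrier of branched-chain amino acids, rose by 0.50 (adjusted p = 0.0220), and *Slc7a11*, the cystine carrier, fell by 0.26 (adjusted p = 0.0317). In lipid-treated cells *Slc38a2* rose again, by 0.19 (adjusted p = 0.0193), the only 1 of the 17 called (5.88%, all genes 2.58%). Of the 11 other genes of urea, glutamine and arginine metabolism, itaconate moved 1 without lipid (9.09%) and 2 in lipid-treated cells (18.2%). *Slc25a22*, a mitochondrial glutamate carrier, fell with itaconate by 0.27 and in lipid-treated cells by 0.17 (adjusted p = 0.00159 and 0.0458). *Asns*, asparagine synthetase, rose with lipid by 0.52 and fell with itaconate in lipid-treated cells by 0.37 (adjusted p = 0.0429).

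Of 20 transcription regulators known for amino acid catabolism genes, 6 rose and 3 fell with lipid. That is 45% called, near the 47.5% of all genes tested. *Creb3l3*, a liver factor tied to the membrane of the endoplasmic reticulum, rose by 1.06 (SE 0.036, adjusted p = 3.10e-11) and fell with itaconate by 0.29 without lipid and 0.40 with it (adjusted p = 0.000343 and 6.77e-05). *Prox1* rose with lipid by 0.53 and *Cebpa* by 0.39. The lipid values given here are of genes that rose, while the lowest log2 fold change of the 20 was −0.49. *Ppargc1a*, a coactivator of the fasting response, rose with itaconate by 0.69 (SE 0.14, adjusted p = 0.0121). Itaconate moved 2 of the 20 regulators without lipid (10%) and 1 in lipid-treated cells (5%), against 4.91% and 2.58% of all genes tested. Of 8 periportal markers, 2 rose and 4 fell with lipid (75% called). Of 7 pericentral markers, 0 rose and 2 fell (28.6%), where 47.5% of all genes tested were called. These lists hold some members (*Hal*, *Sds*, *Gls2*, *Arg1*, *Glul*, *Oat*).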
